A study of Equus caballus with 28 samples.

Results

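The comparison of pregnant with cyclic endometrium rests on 9 of the 28 small RNA libraries of the study, those made from endometrial biopsies, with 5 libraries of pregnant and 4 of cyclic mares. The libraries were chosen by their labels alone, and every biopsy library entered. All biopsies were taken 13 days after ovulation from reproductively sound Warmblood mares, which had received the ovulation-inducing hormone hCG in either kind of cycle. Mares of the pregnant group were inseminated with semen of a single stallion and were found pregnant, and the cyclic group was left unbred. The study followed each mare through a pregnant and a cyclic cycle. The labels give replicate numbers, which were taken here as mares. On that reading mares 1 to 4 serve as their own controls, while mare 5 has a pregnant library only. The embryo had been flushed from the uterus just before a pregnant biopsy was cut, so these biopsies had been in contact with the conceptus and with the flush.

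MicroRNAs (miRNAs) are short RNAs that guide a silencing complex to matching sites in messenger RNAs, which are then translated less or degraded. Several are made from a single transcript and so come in clusters, and members that share a seed, the bases near the 5′ end, bind overlapping sets of messengers. At this stage of equine pregnancy the spherical conceptus still moves through the uterine lumen, and the endometrium must recognise it and withhold the prostaglandin pulse that would end the luteal phase. A biopsy holds surface and glandular epithelium, stroma, vessels and leukocytes, and for each of these a few marker miRNAs are known.

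Cyclic libraries had 61836 to 371630 reads on miRNAs and pregnant ones 280065 to 590593. The pregnant library had more reads in 4 of 4 mares (exact sign-flip test, two-sided p = 0.125, the smallest that 4 pairs allow). The cyclic library of mare 1 was the shallowest, and 3 reads there amount to 48.7 CPM (reads scaled to a common library total), against 5.11 to 10.8 CPM in the other libraries. Such floors allow for counting error alone, as reads from PCR are not separate molecules. Cell type markers gave a partial check on the tissue named in the labels. The 6 epithelial markers (the miR-200 family with miR-141, miR-429 and miR-205) summed to between 54159 and 71422 CPM in the 9 libraries. These sums, like the other marker sums here, follow normalization by the trimmed mean of M values (TMM). Without it, epithelial sums were 121217 to 136965 CPM in the embryo libraries and 51627 to 98639 CPM in cyclic uterine fluid. They thus do not single out endometrium. The 8 miRNAs of pluripotent and early embryonic cells had 6 reads in all cyclic and 3 in all pregnant libraries, against 6875 in the 5 embryo libraries. Pregnant library 5 stood apart by its stromal and smooth muscle markers, which summed to 56376 CPM against 18870.2 to 35768 CPM in the other 8, and cyclic library 3 had the lowest sum of ciliated cell markers, at 3251 CPM against 6734 to 17200.4 CPM.

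After rows of predicted miRNAs with near-identical counts were counted once, 320 miRNAs were tested, of which 267 are known horse miRNAs and 53 are predictions of the authors' software. Calls required a change of at least 2-fold and a false discovery rate (FDR) no higher than 0.05 by the quasi-likelihood test of edgeR, in a model that also fits each mare. In the pregnant endometrium 7 miRNAs were called higher (2.19% of those tested) and 0 lower (0.0%). Among the known miRNAs 2 were called (0.749%), eca-miR-9a and eca-miR-146b-5p, and among the predicted ones 5 were (9.43%). The FDR alone was met by 9 miRNAs, all higher (2.81%), which adds eca-miR-21 and eca-miR-155. At an unadjusted p under 0.05 there were 27 higher (8.44%) and 6 lower miRNAs (1.88%), while 164 of the 320 had a fitted change above 0 (51.2%).

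Differences are relative to the scaling of the libraries. Under TMM, the median log2 fold change of the 320 miRNAs was 0.029. Scaled by library totals instead, it moved by −0.23, to −0.20, and the split at an unadjusted p under 0.05 became 15 higher and 16 lower. Levels below are TMM-normalized CPM unless plain CPM is named, and changes are log2 fold changes of pregnant over cyclic libraries. Mare 5 contributes to levels and group means but, having no cyclic partner, enters the fold changes only where the mare block is left out.

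**Figure D1:**
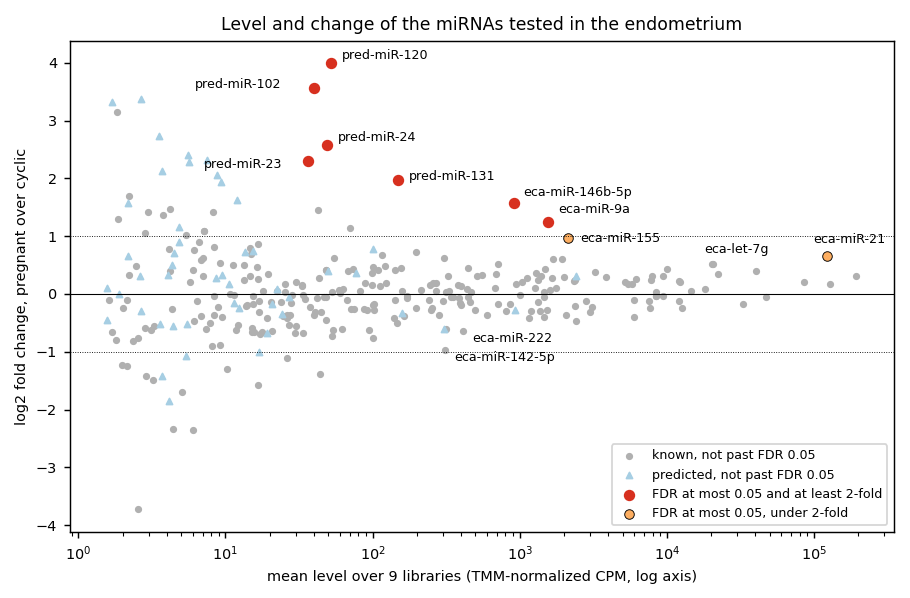
Mean level over the 9 endometrial libraries (TMM-normalized CPM, log axis) against the log2 fold change of pregnant over cyclic endometrium for the 320 miRNAs tested, with known and predicted miRNAs as separate symbols. The 9 miRNAs with an FDR of at most 0.05 all lie above 0, and the predicted ones among them lie at low levels.

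On the TMM scale the most evenly changed miRNA was eca-miR-21, which is abundant in many tissues. Its level was 99392, 86490.5, 90331 and 96208 CPM in cyclic libraries 1 to 4. In pregnant libraries 1 to 5 it was 155091, 133637, 143565, 154596 and 151317 CPM. The groups did not overlap, a pattern seen for 6 of the tested miRNAs in this direction (1.88%), and every pregnant library lay well above every cyclic one. The log2 ratio within mares was 0.64, 0.63, 0.67 and 0.68 for mares 1 to 4. The fitted log2 fold change was 0.66 (SE 0.12, 95% interval 0.41 to 0.90, edgeR FDR 0.000246), or 1.57-fold, so it rose by less than the 2-fold threshold. In a bulk biopsy a change in the number of cells that hold a miRNA cannot be told apart from a change in its amount per cell. The log2 fold change of eca-miR-21 stayed between 0.42 and 0.69 in 22 alternative settings. In plain CPM it was also higher in 4 of 4 mares, but less evenly. It went from 117351 to 138669 CPM in mare 1 and from 101071 to 165497 CPM in mare 4. The groups then overlapped, since cyclic library 1 lay above pregnant library 3 with 114935 CPM. The FDR was above 0.05 in 6 of the 22 settings, among them the likelihood ratio test (0.224), DESeq2 (0.066), scaling by library totals (0.156) and the fit with no block (0.131).

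Among 8 miRNAs known from leukocytes, 4 were above 0 and 4 below, with a median log2 fold change of 0.29 against 0.029 over all miRNAs. The member with the most reads was eca-miR-155, which is induced in activated macrophages and lymphocytes. It had 1251, 1184, 1780.3 and 1608 CPM in cyclic libraries 1 to 4 and 3083, 2588, 3446, 2293 and 1802 CPM in pregnant libraries 1 to 5. Values did not overlap, in plain CPM as well, although pregnant library 5 lay just above the highest cyclic library, and it was higher in 4 of 4 mares. The fit gave a log2 fold change of 0.97 (SE 0.251, edgeR FDR 0.0149), which is 1.96-fold and so marginally under the 2-fold threshold. The FDR of eca-miR-155 was above 0.05 in 8 of 22 alternative settings, among them library totals (0.18), no block (0.446), thinning (0.0778), 28 libraries in a single fit (0.928) and the fits without mare 1, 2 or 3 (0.0801, 0.104 and 0.113). Without mare 4 it was called (log2 fold change 1.104, edgeR FDR 0.0195).

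Both arms of miR-146b come from a hairpin that NF-κB induces, and the major arm dampens Toll-like receptor signalling. The major arm, eca-miR-146b-5p, measured 275, 210.5, 286 and 1343 CPM in cyclic libraries 1 to 4 and 1987, 1606, 727, 731 and 1073 CPM in pregnant libraries 1 to 5. Mares 1 to 3 had a higher pregnant library, while in mare 4 the cyclic library was the higher one. The fit gave a log2 fold change of 1.57 (SE 0.405, edgeR FDR 0.0149). With a mare left out it ranged from 1.03 (without mare 2) to 2.34 (without mare 4), and eca-miR-146b-5p was called in 3 of these 5 fits but not without mare 2 (edgeR FDR 0.194) or mare 5 (0.067). The call was also lost in the robust quasi-likelihood fit, which lets miRNAs of unusual spread keep more of their own variance (SE 0.877, FDR 0.814). In DESeq2 it was lost too (FDR 0.0737). The related eca-miR-146a, which shares its seed, was at −0.05 on the log2 scale, and it was lower in 3 of 4 mares.

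The lymphoid and myeloid marker eca-miR-142-5p had 261, 572, 202 and 340.1 CPM in cyclic libraries 1 to 4 and 212, 312, 65.9, 161 and 667 CPM in pregnant libraries 1 to 5. Each of mares 1 to 4 had less of it in the pregnant library, yet the groups overlapped, with pregnant libraries 1 and 2 inside the cyclic range and pregnant library 5 above it. Over the paired mares its log2 fold change was −0.97 (SE 0.341, edgeR FDR 0.174), and DESeq2 called it lower (log2 fold change −1.04, FDR 0.0489). The neutrophil and monocyte marker eca-miR-223 had a log2 fold change of 0.62 (SE 0.36, edgeR FDR 0.648), and the lymphocyte marker eca-miR-150 one of −0.18. The 8 markers together summed to between 2214 and 4274 CPM in cyclic and between 4237 and 6286 CPM in pregnant libraries, and the sum was higher in 3 of 4 mares. Most of this sum was eca-miR-155 (cyclic mean 1456, pregnant mean 2642.5 CPM) and eca-miR-146b-5p (528.6 and 1224.8). Means were 437.5 and 449.8 for eca-miR-146a, 343.7 and 283.7 for eca-miR-142-5p, 271.2 and 335.7 for eca-miR-223, and 113.0 and 90.2 for eca-miR-150. The sum is therefore no measure of leukocyte number.

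**Figure D2:**
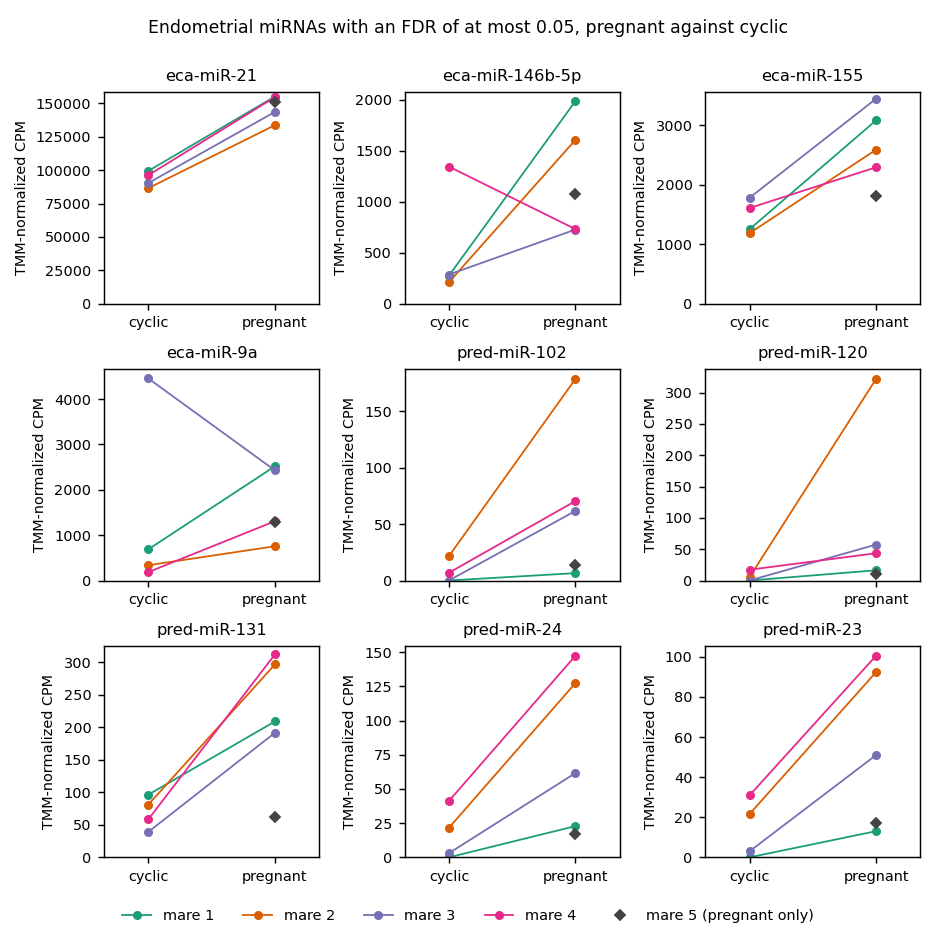
TMM-normalized CPM of the 9 miRNAs with an FDR of at most 0.05, 1 panel each, with lines joining the cyclic and pregnant library of mares 1 to 4 and a diamond for the pregnant library of mare 5. On this TMM scale lines for eca-miR-21 run parallel, while mare 4 falls for eca-miR-146b-5p and mare 3 falls for eca-miR-9a.

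The other known miRNA called, eca-miR-9a, is best known from neural progenitors and also occurs in some epithelia. Its cyclic libraries 1 to 4 had 688, 337, 4457 and 186 CPM and its pregnant libraries 1 to 5 had 2518, 755, 2429.7, 1307 and 1290.0 CPM. Cyclic library 3 was the highest of all 9 libraries, so the groups overlapped, and the pregnant library was higher in mares 1, 2 and 4 only. The log2 fold change of eca-miR-9a was 1.24 (SE 0.361, edgeR FDR 0.0474), it was 1.92 without mare 3 and 0.68 without mare 4. The group means, 1417 ± 2038 CPM (SD, n = 4) in cyclic and 1660.2 ± 776 CPM (SD, n = 5) in pregnant mares, differed by far less than their spread, and with no block the log2 fold change was 0.22 (edgeR FDR 0.936). The call was also lost in the robust fit (FDR 0.836) and in DESeq2 (FDR 0.284). The embryo libraries held 12714 ± 3497 plain CPM (SD, n = 5) of it, and any part of conceptus RNA in the endometrial values was not tested.

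The predicted miRNAs that were called had few reads. The best measured was pred-miR-131, which stands for a pair of rows with near-identical counts (pred-miR-131 and pred-miR-132). It had 96.3, 80.9, 39.1 and 58.4 CPM in cyclic libraries 1 to 4 and 209, 296, 191, 312 and 61.9 CPM in pregnant libraries 1 to 5. Within mares 1 to 4 the pregnant library was higher each time, and across mares only pregnant library 5 lay within the cyclic range. The log2 fold change was 1.97 (SE 0.388, edgeR FDR 0.0006), from 67 cyclic and 358 pregnant reads, and it was called in 19 of 21 alternatives.

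The remaining 4 predicted miRNAs were near 0 in the cyclic libraries. For pred-miR-102, cyclic libraries 1 to 4 had 0, 21.6, 0 and 6.87 CPM, and pregnant libraries 1 to 5 had 6.52, 178, 61.6, 70.4 and 13.8 CPM. That amounts to 10 against 112 reads, and the log2 fold change was 3.56 (SE 0.64, edgeR FDR 0.000246). The group of 6 near-identical rows counted as pred-miR-120 had 7 against 149 reads, and its log2 fold change was 4.00 (SE 0.719, edgeR FDR 0.000246). Pregnant library 2 alone had 322 CPM of it, against 10.3 to 57.4 CPM in the other pregnant libraries, and the log2 fold change of pred-miR-120 was 2.71 without mare 2 and 5.95 without mare 4. The counts of pred-miR-24 (log2 fold change 2.58, SE 0.545, edgeR FDR 0.0015) and pred-miR-23 (2.30, SE 0.567, edgeR FDR 0.0108) resembled each other enough to merge at a wider limit, so they may not be separate miRNAs. Each of these 4 was higher in the pregnant library of 4 of 4 mares, while the cyclic library of mare 1, the shallowest, had 0 reads of any of them.

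In the embryo libraries pred-miR-102 ranged from 108 to 72619 plain CPM, whereas pred-miR-120 had 4 reads, pred-miR-131 had 10, pred-miR-24 had 8 and pred-miR-23 had 5 over all 5 embryos. Whether conceptus RNA had a part in the endometrial values was not tested. The defining markers of early embryonic cells, the miR-302/367 and miR-371/372 clusters, had 3 reads in the 5 pregnant biopsies. Over the 53 predicted miRNAs the median log2 fold change was 0.33, with 35 above 0, against −0.025 over the 267 known ones, with 129 above 0. With library totals 31 of 53 and 83 of 267 were above 0. The filter asked for 1 CPM in 4 libraries, which a row read in pregnant libraries alone could meet with 4 of 5. A row read in cyclic libraries alone needed all 4, the shallow library 1 included. The part of the filter in the lean of the predicted miRNAs was not tested. Predicted miRNAs took 0.463% ± 0.0785 of the reads in the 5 pregnant libraries (mean and SD) against 0.476% ± 0.0304 in the 4 cyclic ones (exact permutation test, two-sided p = 0.762).

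Under TMM, abundant miRNAs leaned towards the pregnant libraries. Of the 65 known miRNAs with a mean of at least 1000 CPM, 15 were higher in the pregnant library of 4 of 4 mares (23.1%) and 3 were lower in 4 of 4 (4.62%). Over all 320 the shares were 11.6% and 3.44%. The median log2 fold change of the 65 was 0.18, with 41 above 0. It was not seen in plain CPM, where 6 of the 65 were higher in 4 of 4 mares and 6 were lower, nor with library totals, where the median was −0.061, with 25 above 0. The let-7 family, which is abundant in differentiated tissue and restrains proliferation genes such as LIN28 and HMGA2, had 7 of 7 members above 0, with a median of 0.32 and a range of 0.18 to 0.52. With library totals in place of TMM, 6 of 7 were above 0, the median was 0.081 and eca-let-7c was at −0.06.

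The most abundant miRNA of the endometrium was eca-let-7a. Its cyclic libraries 1 to 4 had 154300.2, 151234, 226371 and 182326 CPM, and its pregnant libraries 1 to 5 had 241682, 201059.9, 272348, 175540.5 and 141169.6 CPM. Pregnant libraries 1 and 3 lay above the cyclic range, 2 and 4 within it and 5 below it. The log2 fold change came to 0.32 (SE 0.117, edgeR FDR 0.232).

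The family member with the largest change was eca-let-7g. It had 17038, 14569.8, 19463 and 17013 CPM in cyclic libraries 1 to 4 and 26975, 21991, 24159, 24508 and 16443 CPM in pregnant libraries 1 to 5. All of mares 1 to 4 had more in the pregnant library, and pregnant library 5 lay among the cyclic ones. Its log2 fold change was 0.52 (SE 0.17, edgeR FDR 0.116), and that of eca-let-7f was 0.41 (SE 0.152, edgeR FDR 0.244). The members differ by a few bases, so their reads may have been divided between them by the counting.

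The miR-23/27/24 clusters, known from vessels and from lipid metabolism, had 5 of 5 members above 0 with a median of 0.29. Their sum was between 27329 and 31559 CPM in cyclic and between 34883 and 44833 CPM in pregnant libraries, so the sums did not overlap on this scale. In plain CPM they did, at 25500.8 to 37260.7 in cyclic and 31189 to 41853.5 in pregnant libraries. The leading member, eca-miR-27b, had 17656, 14103, 18359 and 15587 CPM in cyclic libraries 1 to 4 and 19935, 28462, 24578, 21853 and 24138 CPM in pregnant libraries 1 to 5. Every pregnant value exceeded every cyclic value. The fit gave a log2 fold change of 0.52 (SE 0.176, edgeR FDR 0.137), which did not pass the FDR, and that of eca-miR-24 was 0.43 (SE 0.194, edgeR FDR 0.389). With library totals, 3 of 5 members were above 0 and eca-miR-27b was at 0.29, and in plain CPM its groups overlapped and mare 1 had the higher value in its cyclic library.

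In the family of eca-miR-103 and eca-miR-107a, known for its part in insulin sensitivity, 3 of 3 members were above 0 (median 0.61). Mares 1 to 4 all had more in the pregnant library for eca-miR-103 (log2 fold change 0.61, SE 0.249, edgeR FDR 0.302) and for eca-miR-107a (0.61, SE 0.254, edgeR FDR 0.302). Their sequences are alike and their counts moved in step, so they are not independent of each other. All 3 stayed above 0 with library totals, at a median of 0.37. The epithelial marker eca-miR-200c, a repressor of the mesenchymal factors ZEB1 and ZEB2, was higher in 4 of 4 mares (log2 fold change 0.35, SE 0.166, edgeR FDR 0.42) and was at 0.12 with library totals.

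**Figure D3:**
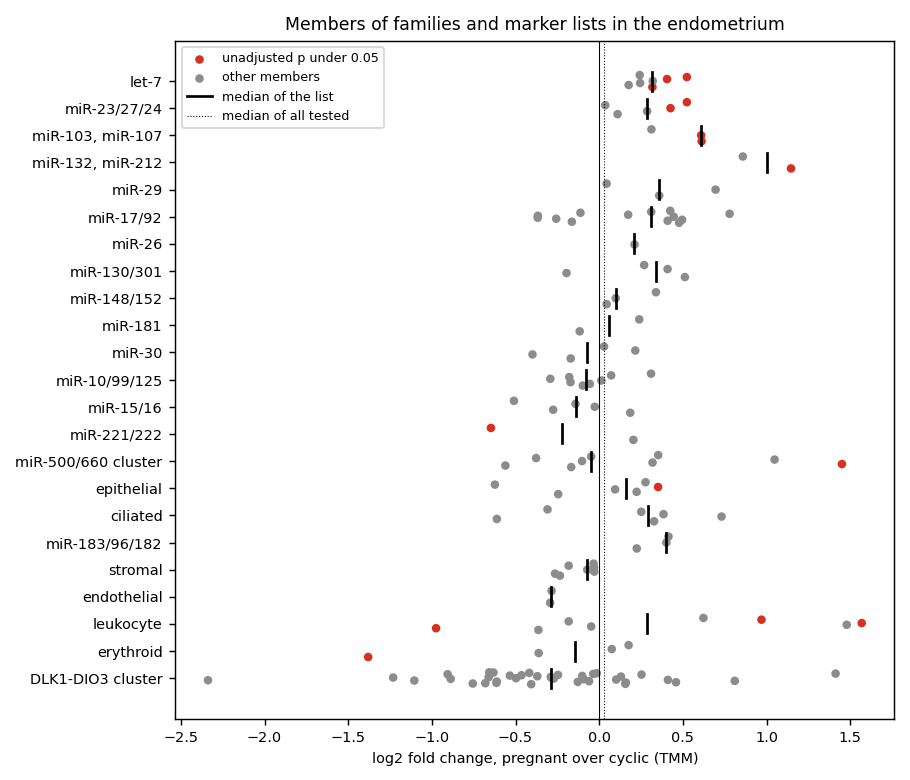
Log2 fold changes of pregnant over cyclic endometrium under TMM for the tested members of 23 families, clusters and marker lists, with a dot per miRNA, a bar at the median of each list, red for an unadjusted p under 0.05 and a dotted line at the median of all tested miRNAs. The let-7, miR-23/27/24 and miR-103 families lie wholly above 0 (with library totals 6 of 7, 3 of 5 and 3 of 3), and 28 of 37 members of the DLK1-DIO3 cluster lie below it.

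The cyclic AMP-responsive factor CREB induces eca-miR-132 and eca-miR-212, which had few reads. For eca-miR-132, cyclic libraries 1 to 4 had 55, 75.5, 42.1 and 10.3 CPM and pregnant libraries 1 to 5 had 121, 76.5, 108, 70.4 and 75.7 CPM. Pregnant values were higher in 4 of 4 mares, by next to nothing in mare 2, and the ranges overlapped slightly. Over the paired mares its log2 fold change was 1.15 (SE 0.459, edgeR FDR 0.302), and that of eca-miR-212 was 0.86 with p above 0.05. The X-linked cluster of miR-362, miR-500, miR-532 and miR-660 had 4 of 9 members above 0 and a median of −0.048. Within it eca-miR-362-5p stood out, with 0, 32.4, 6.01 and 61.8 CPM in cyclic libraries 1 to 4 and 35.9, 60.6, 74.4, 77.1 and 34.4 CPM in pregnant libraries 1 to 5. It was higher in 4 of 4 mares (log2 fold change 1.45, SE 0.551, edgeR FDR 0.251), on 32 cyclic and 98 pregnant reads.

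The study names 8 known miRNAs for this comparison, a list chosen on these same samples and so no independent evidence of direction. None of the 8 was called here by edgeR's quasi-likelihood test, by which 0 met the FDR and 3 had an unadjusted p under 0.05 (eca-miR-144, eca-miR-362-5p and eca-miR-132). DESeq2 also called 0 of them. Without mare 2, eca-miR-132 was called higher (log2 fold change 1.65, edgeR FDR 0.0311), and after thinning to the smallest library its log2 fold change was 0.15. The list had 6 members above 0 and 2 below, with a median of 0.28, and 4 above 0 with library totals. The log2 fold change was 0.51 for eca-miR-130a, 0.35 for eca-miR-660, 0.20 for eca-miR-221 and 0.18 for eca-miR-486-5p, with edgeR FDRs from 0.648 to 0.864. Of these, eca-miR-221 and eca-miR-486-5p turned to −0.03 and −0.06 with library totals. Predicted miRNAs that the study reports as higher are outside this list. Some of them fall in the groups counted here as pred-miR-131 and pred-miR-120, which were called higher. These calls rest on the same libraries and are no independent evidence either.

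No miRNA passed the FDR with a lower level in the pregnant endometrium under edgeR's quasi-likelihood test, while 6 had an unadjusted p under 0.05 and DESeq2 called 1. The red cell miRNA eca-miR-144 had 0, 143, 42.1 and 61.8 CPM in cyclic libraries 1 to 4 and 32.6, 19.1, 8.5, 36.9 and 48.2 CPM in pregnant libraries 1 to 5. Mares 2 to 4 had less in the pregnant library, while mare 1 had 0 reads in its cyclic library, the shallowest. The log2 fold change came to −1.38 (SE 0.574, edgeR FDR 0.302). Without mare 1 it was called lower, with a log2 fold change of eca-miR-144 of −1.92 (edgeR FDR 0.0256). Its cluster partner eca-miR-451 was at −0.36 (SE 0.254, edgeR FDR 0.828), and the erythroid list as a whole had 2 of 4 members above 0, and 0 of 4 with library totals.

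The miRNA eca-miR-222, which lowers the cell cycle inhibitor p27, had 578, 434, 424 and 680.2 CPM in cyclic libraries 1 to 4 and 238, 351, 242, 563 and 220.2 CPM in pregnant libraries 1 to 5. It was lower in the pregnant library of 4 of 4 mares, although mare 4 kept a value above 2 of the cyclic libraries. Its log2 fold change was −0.65 (SE 0.318, edgeR FDR 0.469). The other member of the pair, eca-miR-221, had over 10 times its reads and was at 0.20. Among miRNAs of at least 1000 CPM, those lower in 4 of 4 mares were eca-miR-22 (log2 fold change −0.47, edgeR FDR 0.515), eca-miR-30c (−0.40, edgeR FDR 0.538) and eca-miR-423-3p (−0.41, edgeR FDR 0.721). The last of these is outside the naming rule and is given because the count was small.

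The lowest fitted value belonged to eca-miR-215, with 4 reads in the cyclic libraries and 0 in the pregnant ones, which is too few for a fold. It was the only miRNA whose values were lower without overlap (0.312% of those tested). The other 2 miRNAs with an unadjusted p under 0.05 and a lower pregnant level were eca-miR-193b (log2 fold change −1.57) and eca-miR-365 (−2.35), which come from shared transcripts and had mean levels of 16.7 and 6.06 CPM. They were named after their values were seen.

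The imprinted DLK1-DIO3 cluster, which is expressed from the maternal chromosome and is active in fetal and mesenchymal tissues, had 37 tested members. Of these 28 were below 0 and 9 above, and the median log2 fold change was −0.29, against 0.029 over all miRNAs. None of the 37 had an unadjusted p under 0.05 under TMM. The member with the most reads, eca-miR-127, was at −0.41 (SE 0.289, edgeR FDR 0.828), and the member with the smallest p among the named ones, eca-miR-370, was at −1.11 (SE 0.569, edgeR FDR 0.515) on 41 cyclic and 33 pregnant reads. The summed level was between 4428 and 7398 CPM in cyclic and between 3359 and 7878 CPM in pregnant libraries, so the sums overlapped fully, and the pregnant sum was higher in mare 1 and lower in mares 2 to 4. Most members share a transcript and are not independent measurements. With library totals, 32 of 37 were below 0.

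Markers of cell types gave a check on what the biopsies held. All 7 stromal and smooth muscle markers (miR-143, miR-145, miR-199 and miR-214) were below 0, but only just, with a median of −0.072 and a lowest value of −0.26. Of these, eca-miR-199a-3p and eca-miR-199b-3p had near-identical counts (9080 and 9069 cyclic reads). They are not independent measurements, and both enter the stromal sums. The leading one, eca-miR-143, had 6504 to 15271 CPM in cyclic and 7197 to 10781 CPM in pregnant libraries 1 to 4, against 33924 CPM in pregnant library 5. Its log2 fold change over the paired mares was −0.24 (SE 0.201, edgeR FDR 0.828). The endothelial arms eca-miR-126-3p and eca-miR-126-5p were at −0.29 and −0.28, both with an edgeR FDR of 0.828, and their sum ranged from 2145 to 3840 CPM in cyclic and from 2007 to 4771 CPM in pregnant libraries. Epithelial markers had 4 of 6 above 0 (median 0.16), and 2 of 6 with library totals. Under TMM the epithelial sum was higher in the pregnant library of 4 of 4 mares, at 56303 ± 2116 CPM (SD, n = 4) in cyclic and 65346 ± 4864 CPM (SD, n = 5) in pregnant libraries. On that scale eca-miR-21 and eca-miR-27b were also higher in 4 of 4 mares and the let-7 sum in 3 of 4, mare 4 being the exception. The part of the epithelial share in these values was not tested. In plain CPM the epithelial sum was higher in 1 of 4 mares.

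Ciliated cell markers (miR-34 and miR-449) had 4 of 6 above 0, with a median of 0.29. Their arms disagreed, since eca-miR-34b-5p was at 0.73 (SE 0.376, edgeR FDR 0.515) and eca-miR-34b-3p at −0.61 (SE 0.372, edgeR FDR 0.686), and both come from a single hairpin. Their sum spread from 3251 to 16996 CPM within the cyclic group, more than the groups differed. Markers of striated muscle were almost absent, with 36 cyclic and 107 pregnant reads over 8 listed miRNAs, of which 4 had no read.

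**Figure D4:**
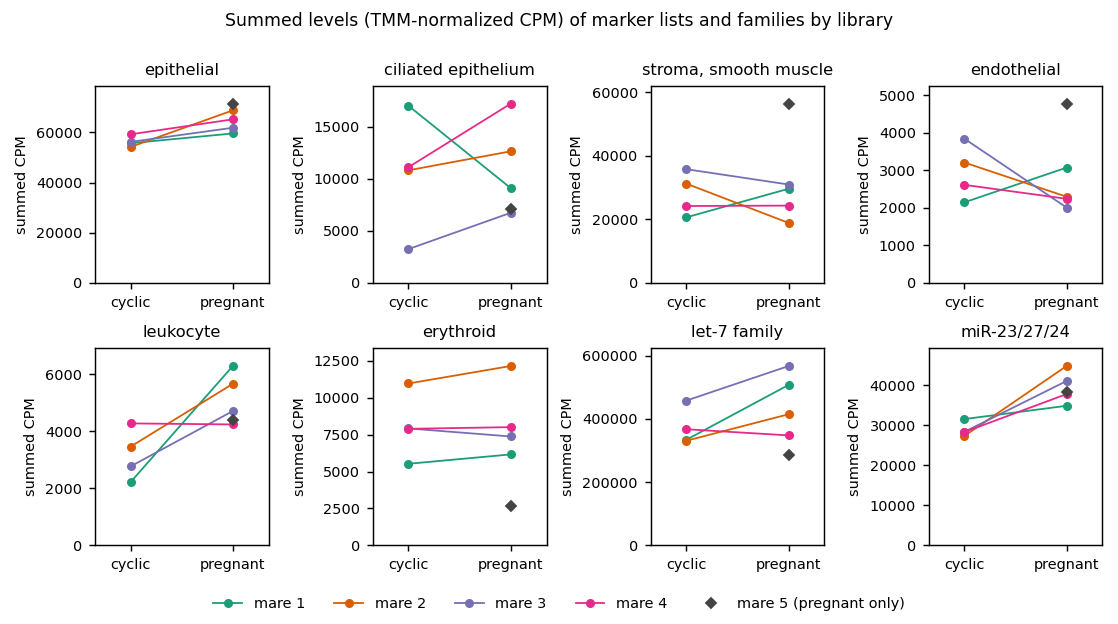
Summed TMM-normalized CPM of 6 cell type marker lists and of the let-7 and miR-23/27/24 families, with lines joining the cyclic and pregnant library of mares 1 to 4 and a diamond for the pregnant library of mare 5. On this TMM scale epithelial and miR-23/27/24 sums are higher in the pregnant library of each paired mare (in plain CPM in 1 and 3 of 4 mares), and mare 5 is highest in stromal and endothelial sums and lowest in erythroid and let-7 sums.

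Families without a shared direction, or whose members stayed close to 0, included several of the most abundant. The miR-26 family was measured as eca-miR-26a, which was higher in 4 of 4 mares by a log2 fold change of 0.21 (SE 0.13, edgeR FDR 0.721) and was at −0.03 with library totals. The HOX-cluster miRNAs eca-miR-10a and eca-miR-10b were at −0.06 and −0.17 and varied more between mares than between groups. For eca-miR-10b, the cyclic libraries ranged from 12995 to 68853 CPM and the pregnant ones from 12500.5 to 39073 CPM. The miR-30 family had 2 of 4 above 0 (median −0.071), the miR-15/16 family, which restrains the cell cycle, 1 of 5 (−0.14), and the miR-17/92 group, which promotes it, 8 of 13 (0.31); with library totals these were 0, 0 and 7. In none of these 3 did a member have an unadjusted p under 0.05 under TMM. The miR-29 family, which lowers collagen genes, had 3 of 3 above 0 (0.36), the miR-130 and miR-301 family 3 of 4 (0.34) and the miR-148 and miR-152 family 3 of 3 (0.10), and with library totals these were 2, 3 and 1.

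Prostaglandin release is the readout that pregnancy must suppress at this time, and 3 miRNAs on the lists have been described in other species as binding the messenger of PTGS2, the inducible prostaglandin synthase. Of these eca-miR-101 was at 0.29 (SE 0.225, edgeR FDR 0.828) and higher in 4 of 4 mares, with 2338 to 4418 CPM in cyclic and 3184 to 7668 CPM in pregnant libraries. The other members, eca-miR-146a and eca-miR-199a-3p, were at −0.05 and −0.03. Mouse work also links miR-144 to PTGS2, and eca-miR-144, which is not among these 3, had a log2 fold change of −1.38. No member passed the FDR.

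Of the 267 known miRNAs tested, 257 matched a hairpin gene of RefSeq on the horse assembly TB-T2T, and 55 clusters held at least 2 of them within gaps of 10000 bases. The assembly is not that of the authors' predictions, so it was used for neighbourhood only. The cluster of miR-450, miR-503 and miR-542, which is X-linked, had 1 of 6 tested members above 0, and its median was −0.61 (−0.85 with library totals, none above 0). None of its members had an unadjusted p under 0.05. The miR-450 cluster is outside the naming rule and was picked from the 55 with their values at hand. The cluster of miR-200a, miR-200b and miR-429 had 4 of 4 tested members above 0 with a median of 0.16, and 1 of 4 with library totals.

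Uterine fluid of the same cycles was sequenced with another extraction kit, and the pregnancy effect in endometrium was set against that in fluid by an interaction test over 18 libraries. The effect differed for 2 of 347 miRNAs (0.576%). For pred-miR-131 the difference was 3.38 on the log2 scale (edgeR FDR 0.00104), with 1.86 in endometrium and −1.51 in fluid, both from this fit of 18 libraries. For pred-miR-28, which stands for 5 near-identical rows, it was 3.90 (edgeR FDR 0.00601), with 1.90 in endometrium, on only 4 cyclic and 24 pregnant reads, and −1.998 in fluid. The difference was 0.03 (SE 0.324) for eca-miR-21 and −0.01 (SE 0.41) for eca-miR-155, whose changes in this fit were 0.57 and 0.88 in endometrium and 0.54 and 0.89 in fluid. These standard errors leave room for differences of more than 0.5 in either direction.

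The calls depended on the mare block and on the model. With no replicate block, edgeR called 0 miRNAs, with 20 at an unadjusted p under 0.05, and the smallest FDR among the named miRNAs was that of eca-miR-21. DESeq2 with the block called 4 higher and 1 lower, and limma voom called 5 higher, all of them predicted miRNAs. The 4 predicted miRNAs pred-miR-102, pred-miR-120, pred-miR-131 and pred-miR-24 were called by edgeR's quasi-likelihood and likelihood ratio tests, DESeq2, limma voom and the robust fit. They were also called whichever of the mares 1 to 5 was left out. These fits share rows and libraries, so their agreement is no independent evidence. The cyclic library of mare 1 had no read of pred-miR-102, pred-miR-120 or pred-miR-24. These therefore met the filter of 4 libraries only with pregnant ones. With no low-count filter all 4 were called as well. None of the 4 was called with no block or with 28 libraries in a single fit, and pred-miR-131 alone was called after thinning. With the stricter count filter pred-miR-131 and pred-miR-24 were called, while pred-miR-102 and pred-miR-120 did not pass that filter and were not tested. Known eca-miR-146b-5p was called in 12 and eca-miR-9a in 9 of 22 alternatives.

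**Figure D5:**
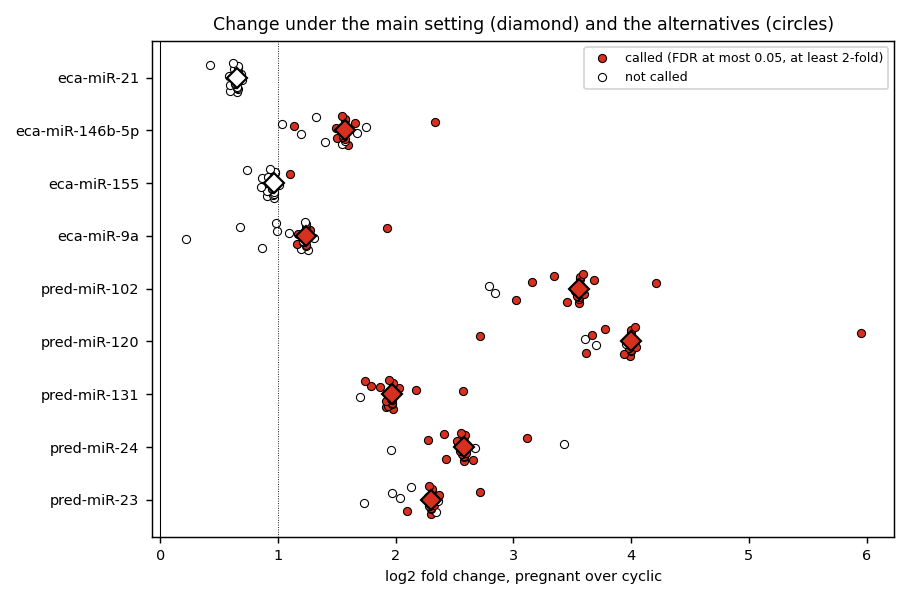
Log2 fold change of pregnant over cyclic endometrium for the 9 miRNAs with an FDR of at most 0.05, with a diamond for the reported fit and circles for the alternative settings, filled where the miRNA was called. No value lies below 0, and the circles of eca-miR-9a spread from 0.22 to 1.92 while those of eca-miR-21 stay between 0.42 and 0.69.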

How the data were processed

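Small RNA of 9 endometrial biopsies was sequenced in single libraries. The authors trimmed adapters with cutadapt 1.11 and discarded short or poor reads, and the reads were then counted with miRPro on horse miRNAs of miRBase and on miRNAs it predicted from EquCab2.0. The deposited values are raw read counts per miRNA without normalization. How reads matching several miRNAs were treated is not given in the sources used here. Sequences of the miRNAs were not used here, and the precursor counts equalled the mature ones in 154 of 154 rows.

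Of 690 known and 154 predicted rows, predicted rows within a Bray-Curtis dissimilarity of 0.05 were counted once, by the row with the most reads, which left 80. Known rows were all kept, though 10 groups of them had near-identical counts, among them eca-miR-17 with eca-miR-106a. Rows reaching 1 CPM in 4 or more libraries were tested with edgeR 4.0.16 (R 4.3.3), with the mare as block. TMM normalization, the quasi-likelihood F test and Benjamini-Hochberg adjustment over all 320 were used. The standard error is the log2 fold change over the root of F. The biological coefficient of variation was 29.4%. On simulated data, 70.1% of 40 miRNAs changed by 2 on the log2 scale were recovered and 1.53% of calls were false. The simulated counts followed the fitted spread, with as many rises as falls and no outlying library. These shares need not hold for the real libraries. DESeq2 1.42.0, limma 3.58.1 and the other alternatives are in the closing section. Exact tests enumerated every split or sign pattern with numpy 2.4.6, and scipy 1.17.1 gave the t quantile of the intervals.

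The study's methods name the mare as experimental unit, so numbers in the labels were taken as mares. Deviations from group means of same-numbered libraries correlated at 0.294, −0.094, 0.398 and 0.294 over 158 miRNAs, against a mean of −0.055 (range −0.423 to 0.473) for different numbers, and 2 of 4 cyclic libraries correlated best with their own number.

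Members, lists and tests were chosen with earlier results of these data known. Named are the miRNAs called, the 8 the study names, the 10 known ones with the most reads, the 6 with the largest change in each direction from 100 CPM, those from 50 CPM that did not overlap or that moved alike in 4 mares with p under 0.05, and in each list the member with the most reads and that with the smallest p.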

Additional observations from a re-analysis of the deposited data

Results flagged for a closer look

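A library far from the rest of its group, by Dixon's test at 95%, was found in 12 of 126 groups of 4 or 5 libraries tested. The nominal rate of 1 in 20 is no reference for this count. The groups share the same libraries, and some of the flagged miRNAs were named for their values in them. Cyclic library 4 had 1343.3 CPM of eca-miR-146b-5p against 210.5 to 285.7 in the other cyclic libraries, and cyclic library 3 had 4456.7 CPM of eca-miR-9a against 185.5 to 687.6. Pregnant library 2 had 321.9 CPM of pred-miR-120 against 10.3 to 57.4.

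Pregnant library 5 accounted for 5 of the 12. It had 33924.2 CPM of the smooth muscle and stromal eca-miR-143 against 7197 to 10781, 3078.7 CPM of the endothelial eca-miR-126-5p against 972 to 1572, and 2765.7 CPM of eca-miR-29a against 935 to 1465. It also had 254.6 CPM of eca-miR-136 against 35.1 to 94.6 and 141.0 CPM of the muscle miRNA eca-miR-1 against 12.8 to 42.4. This library has no cyclic partner and does not enter the fold changes of the reported fit.

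Pregnant library 4 had 6852.0 CPM of eca-miR-221 against 4819 to 5320.0, and pregnant library 3 had 590593 reads against 280065 to 344017. In the shallow cyclic library 1, eca-miR-499-5p was at 0 CPM against 12.0 to 13.7, and eca-miR-215 was at 13.75 CPM, a value that stands for 1 read there, against 2.70 to 3.44.

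The pregnancy effect differed between endometrium and uterine fluid by the interaction test for pred-miR-28 (3.898 on the log2 scale) and pred-miR-131 (3.377). The fluid was extracted with another kit, and its part in these differences was not tested.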

How the results depend on the processing

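The number of miRNAs called higher, 7 as reported, was 4 in DESeq2, 4 with library totals in place of TMM (an alternative added after seeing the data, like upper quartile scaling), 2 with filterByExpr, 2 with known miRNAs only, 1 after thinning to the smallest library, 0 with 28 libraries in a single fit (15 at an unadjusted p under 0.05) and 13 with no predicted rows merged. In the fit with no replicate block it was 0 (20 at an unadjusted p under 0.05). That fit also brings pregnant library 5 into the fold changes, and its part in the loss of calls was not tested. DESeq2 called 1 lower. With a mare left out, 5 to 7 were called higher and 0 to 2 lower, the 2 being eca-miR-142-5p and eca-miR-144 without mare 1. The effect differed from that in fluid for 2 miRNAs as reported, for 0 with no replicate block (14 at an unadjusted p under 0.05), 7 with no rows merged, 0 with filterByExpr (10 at an unadjusted p under 0.05) and 0 to 7 with a mare left out, the 0 without mare 3 and the 7 without mare 2.

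Named miRNAs whose sign changed passed no threshold in the reported fit, though without mare 2 both eca-miR-10a (−0.517) and eca-miR-10b (−0.588) met the FDR (0.0409 each) with changes under 2-fold. With library totals they were at −0.031 for eca-miR-221, −0.06 for eca-miR-486-5p, −0.061 for eca-let-7c, −0.031 for eca-miR-26a, −0.007 for eca-miR-182, −0.067 for eca-miR-1, −0.021 for eca-miR-30d and −0.191 for eca-miR-148a. With no replicate block they were at −0.087 for eca-miR-486-5p, −0.132 for eca-miR-449a, 0.354 for eca-miR-143, 0.076 for eca-miR-126-5p, 0.056 for eca-miR-192, 0.015 for eca-miR-532-5p and 0.088 for eca-miR-199a-3p. After thinning they were at −0.4 for eca-miR-1, 0.049 for eca-miR-192 and 0.135 for eca-miR-16. With 28 libraries they were at 0.012 for eca-miR-16 and 0.01 for eca-miR-199a-3p. For eca-miR-148a the value was −0.022 in DESeq2, −0.04 in limma voom, −0.022 with RLE size factors and −0.022 with known miRNAs only.

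With a mare left out, ranges that crossed 0 were −0.517 to 0.313 for eca-miR-10a, −0.592 to 0.343 for eca-miR-10b, −0.098 to 0.683 for eca-miR-449a, −0.198 to 0.481 for eca-miR-182, −0.312 to 0.466 for eca-miR-1, −0.011 to 0.765 for eca-miR-499-5p, −0.317 to 0.008 for eca-miR-192, −0.229 to 0.009 for eca-miR-92a, −0.205 to 0.036 for eca-miR-16, −0.352 to 0.001 for eca-miR-181a, −0.118 to 0.194 for eca-miR-148a, −0.253 to 0.196 for eca-miR-532-5p and −0.218 to 0.205 for eca-miR-199a-3p. The cause of these shifts was not tested. The shallow cyclic library of mare 1 limits what can be seen of miRNAs under about 50 CPM, and 4 pairs limit single-value tests to a two-sided p of 0.125.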
